A study of Rattus norvegicus with 8 samples.

Results

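The genes described here carry out gluconeogenesis and glucose release in the liver of a diabetic rat. They are the enzyme genes Pck1, Pck2, Pc, Fbp1 and G6pc (now named G6pc1), the transporter genes Slc37a4 and Slc2a2, and the regulator genes Foxo1 and Ppargc1a. Every probe set that the platform annotation tied to exactly 1 of these symbols was taken, which gave 13 of the 31042 probe sets other than manufacturer's controls, for 8 of the 9 genes. G6pc1 had no such set, because the 4 sets that name it also name Psme3 and Aoc3. The livers were from male rats aged 18 weeks of the Goto-Kakizaki strain, a lean inbred model of type 2 diabetes. Of these rats, 4 had eaten an AIN-93G diet with persimmon peel extract for 12 weeks and 4 the AIN-93G diet alone, with 1 Affymetrix array per liver. No source used here gives the dose of the extract or the feeding state at sampling. The study asked how the extract changed hepatic gene expression.

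Gluconeogenesis makes glucose from lactate, amino acids and glycerol, and the liver exports that glucose between meals. Pyruvate carboxylase (Pc) and the phosphoenolpyruvate carboxykinases (cytosolic, Pck1, and mitochondrial, Pck2) turn pyruvate into phosphoenolpyruvate, fructose 1,6-bisphosphatase (Fbp1) bypasses phosphofructokinase, and glucose 6-phosphatase (G6pc1) frees the glucose. Slc37a4 carries glucose 6-phosphate into the endoplasmic reticulum, where G6pc1 acts, and Slc2a2 (GLUT2) carries glucose across the hepatocyte membrane. Glucagon, through cAMP, raises transcription of the pathway with the help of the coactivator Ppargc1a (PGC-1alpha), and insulin lowers it by keeping the transcription factor Foxo1 out of the nucleus.

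The cAMP signal reaches these genes through short elements in their promoters, and the promoters of Pck1 and Ppargc1a are shown because each carries such an element close to its start. The sequences are the 250 bases before a transcription start in RefSeq, build GRCr8, plus strand, at chr3:182348322-182348571 for Pck1 and at chr14:63634058-63634307 for Ppargc1a. Capitals mark the core TGACG of the cAMP response element on either strand.
Pck1: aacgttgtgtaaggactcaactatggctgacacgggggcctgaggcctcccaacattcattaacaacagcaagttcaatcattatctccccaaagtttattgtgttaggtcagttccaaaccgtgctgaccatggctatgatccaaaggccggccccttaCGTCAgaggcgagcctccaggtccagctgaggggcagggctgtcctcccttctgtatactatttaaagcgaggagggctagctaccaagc
Ppargc1a: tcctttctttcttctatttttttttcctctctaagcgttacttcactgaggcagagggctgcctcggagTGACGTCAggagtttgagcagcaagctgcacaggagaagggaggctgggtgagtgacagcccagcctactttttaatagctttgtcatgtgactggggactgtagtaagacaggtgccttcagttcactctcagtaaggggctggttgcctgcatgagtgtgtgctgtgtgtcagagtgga

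In the Pck1 window the core begins 90 bases before the start, on the minus strand. In the Ppargc1a window, 2 overlapping cores on opposite strands form the full element TGACGTCA, which begins 181 bases before the start. The promoter table held 9 windows for 8 of the 9 genes, with 2 starts for Slc37a4 and none for Pc. TGACG was found in 4 of the 9 windows, those of Pck1, Ppargc1a and both Slc37a4 starts, and in 18.2% of all 33469 windows of the same length. The full element was in the Ppargc1a window alone among the 9, and in 1.59% of all windows. The insulin response core TGTTTTG was in the G6pc1 window (5.46% of all windows), and the glucocorticoid receptor motif TGTTCT was in the Slc2a2 window (17.5% of all). The FOXO core GTAAACA (3.21% of all) and the HNF4 core AAAGTCCA (1.19% of all) were in 0 of the 9 windows. These are matches of letters, searched on both strands.

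The values are deposited MAS5 signals in linear units, with 1 signal per probe set. Array medians were 33.2 to 39.2 units over the 8 arrays. Pairs of arrays correlated with r of 0.967 to 0.986. All 8 hepatocyte markers on the list were tested, and their summed signal was 59040 to 62020 on the persimmon peel diet, against 63400 to 67850 on the control diet, without overlap. Of the 8, Tat was the 1 called (lower), at a log2 fold change of -0.54 (SE 0.11, limma adjusted p = 0.01). Over the array 4.95% of tested sets were called, and the diets lay apart without overlap in 12.9%. Tdo2 measured -0.25 (SE 0.08, limma adjusted p = 0.092), and Alb, Apoa1, Ttr, Serpina1 and Cps1 ran from -0.11 to -0.07. Hnf4a alone had a positive log2 fold change (0.23, SE 0.08, limma adjusted p = 0.127). The cause of the lower hepatocyte sum was not tested, and how the arrays were scaled is not given. In whole liver, fewer hepatocytes also cannot be told from less RNA per hepatocyte or from lower expression of single markers such as Tat and Tdo2. Macrophage markers summed to 2527 to 4047 units in persimmon peel livers and 2214 to 3100 in control livers (0 of 5 tested called), and those of pancreas and kidney to at most 59.6 units on any array with 0 of 5 bright enough to test. Manufacturer's control sets for beta-actin read the middle and the 3' end of the transcript, and their log2 ratio, a measure of RNA quality and labelling, was -1.06 ± 0.11 on the persimmon peel diet and -0.764 ± 0.015 on the control diet (SD, n = 4 each; p = 0.0286 in a two-sided exact permutation test, the smallest this design allows). The parts of the hepatocyte signal and of this ratio in the results below were not tested.

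None of the 8 genes with a probe set of their own passed the test between the diets. Of the 13 probe sets, 9 were bright enough to test, covering Pck1, Pck2 (2 sets), Pc, Fbp1, Slc37a4, Slc2a2, Foxo1 and Ppargc1a. In limma's test 0 of the 9 were called lower and 0 higher at an adjusted p under 0.05. Over the whole array 4.53% of the 15521 tested sets were called lower and 0.425% higher, or 4.95% in all, so that few or no calls among 9 sets is near the background. After quantile normalization the split over the array was 596 lower and 271 higher, against 703 lower and 66 higher as deposited. At an unadjusted p under 0.05 there were also 0 of 9, against 19.6% over the array. In 0 of the 9 sets did the 4 arrays of one diet lie apart from the 4 of the other, against 12.9% over the array. The 9 sets had a median log2 fold change of -0.04, where all tested sets had -0.01, and 5 of the 9 values were negative. After quantile normalization the median of the 9 was 0.05 and 4 were negative, and the median of all sets was 0.02. None of the 9 was called in any of the 18 other fits that tested it, which include each array left out in turn.

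**Figure D1:**
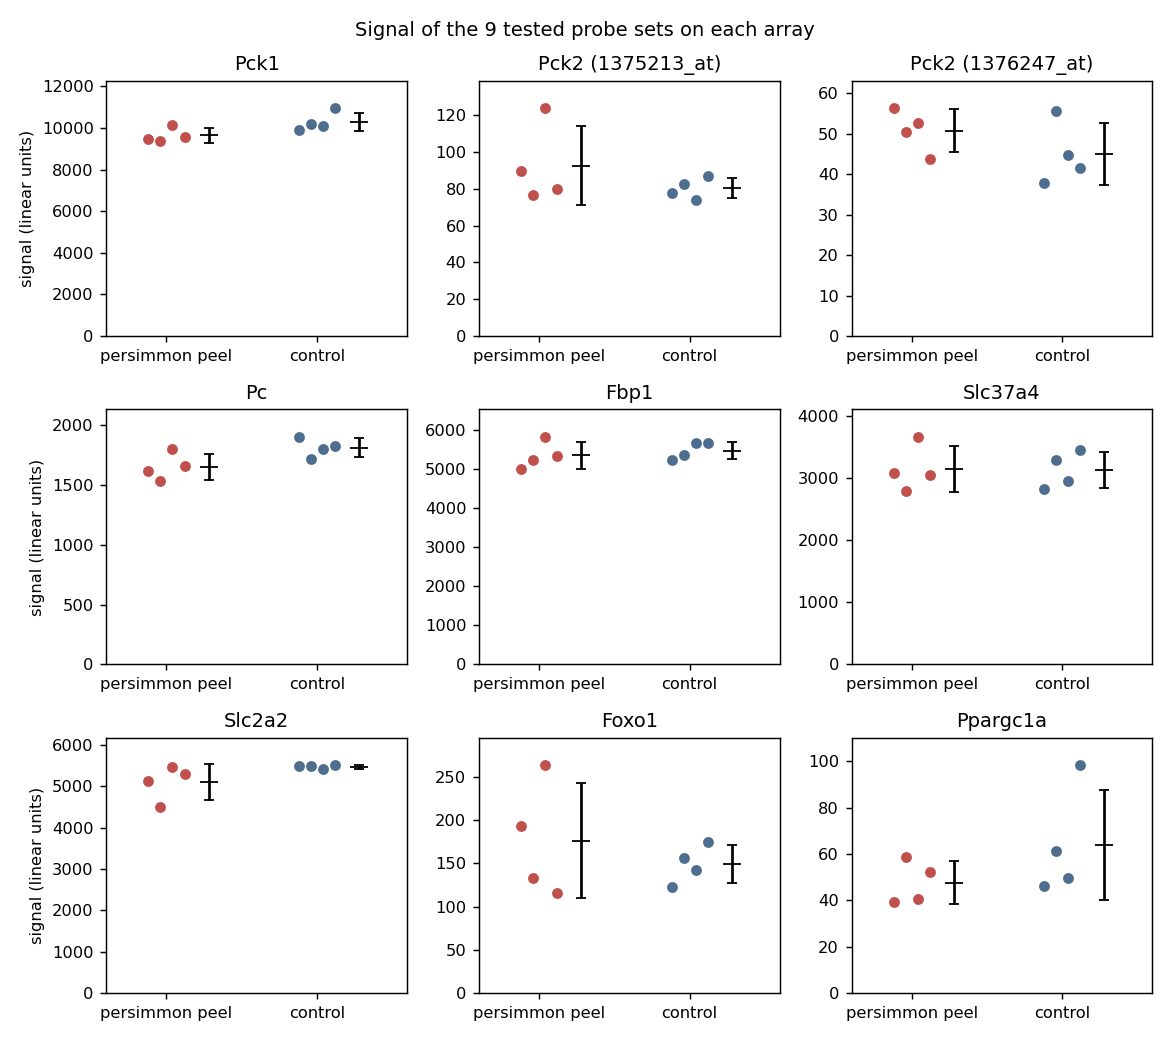
Signal of the 9 tested probe sets on each array, in linear units from 0, with the persimmon peel diet on the left and the control diet on the right. Points are livers, and the bar beside them gives the mean and SD of 4. The diets overlap in every panel, and the Slc2a2 signals of the control livers lie within 5409 to 5511 units.

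Among the enzymes, the Pck1 set, for the cytosolic carboxykinase, had 9488, 9358, 10145 and 9582 units in persimmon peel livers, against 9913, 10183, 10103 and 10941 units in control livers. The groups overlapped only through persimmon peel array 3. Its log2 fold change was -0.09 (SE 0.06, 95% interval -0.21 to 0.03, limma adjusted p = 0.381). A fall to 0.864 of the control signal and a rise to 1.02 of it mark the ends of the interval. These signals are high for the array, where the brightest probe set on any array reached 16071 units.

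Pc, which carboxylates pyruvate in the mitochondrion, had 1616, 1532, 1800 and 1658 units on the persimmon peel diet and 1904, 1714, 1799 and 1828 on the control diet. Only persimmon peel array 3 reached into the control range. A log2 fold change of -0.13 (SE 0.08, 95% interval -0.30 to 0.03) was not called (limma adjusted p = 0.357). Fbp1 had 5006, 5211, 5816 and 5322 units in persimmon peel livers and 5216, 5339, 5651 and 5658 in control livers, with the highest single value on persimmon peel array 3. Its log2 fold change was -0.04 (SE 0.07, 95% interval -0.17 to 0.10, limma adjusted p = 0.809).

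Pck2, the mitochondrial isoform, gave much weaker signals than Pck1 gave, on different probes, so the levels of the isoforms cannot be compared. Its brighter set read 89.5, 76.6, 124 and 80.1 units on the persimmon peel diet, against 77.7, 82.8, 74.1 and 87.0 on the control diet. The persimmon peel mean rests on array 3, as the log2 fold change of 0.18 (SE 0.16, limma adjusted p = 0.573) was 0.03 without that array. The dimmer set read 56.3, 50.3, 52.8 and 43.7 units in persimmon peel livers and 37.9, 55.6, 44.8 and 41.6 in control livers, and the estimate was 0.18 on the log2 scale (SE 0.18, limma adjusted p = 0.606). Both sets thus gave the same small positive estimate with overlapping groups. The log2 gap between the sets was -0.845 ± 0.28 on the persimmon peel and -0.85 ± 0.24 on the control diet (SD, n = 4 each; exact permutation test, two-sided p = 1, for the 1 pair of sets compared).

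Of the transporters, Slc37a4, the glucose 6-phosphate translocase, had 3083, 2802, 3669 and 3055 units on the persimmon peel diet and 2829, 3288, 2959 and 3455 on the control diet. The groups covered almost the same range, and the log2 fold change was 0.01 (SE 0.09, 95% interval -0.19 to 0.20, limma adjusted p = 0.98). Slc2a2, the glucose carrier of the hepatocyte surface, had 5143, 4490, 5473 and 5306 units in persimmon peel livers and 5485, 5496, 5409 and 5511 in control livers. Persimmon peel array 3 alone lay inside the control range, and the other persimmon peel arrays lay below it. Between the diets the log2 fold change was -0.11 (SE 0.07, 95% interval -0.25 to 0.04, limma adjusted p = 0.418). The control livers varied by 0.827% of their mean (SD, n = 4) and the persimmon peel livers by 8.43%.

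The regulators were dim and spread widely. Foxo1, the insulin-restrained transcription factor, had 1 tested set out of 3, which read 193, 134, 264 and 116 units on the persimmon peel diet and 123, 157, 142 and 175 on the control diet. Its persimmon peel arrays held both the highest and the lowest values of the 8. The log2 fold change of 0.18 (SE 0.21, 95% interval -0.27 to 0.63, limma adjusted p = 0.679) changed sign to -0.04 without persimmon peel replicate 3. The other Foxo1 sets were too dim to test, with mean signals of 12.4 and 2.26 units.

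Ppargc1a, the coactivator, had the most negative estimate of the 9 tested sets. The tested set read 39.1, 58.7, 40.5 and 52.2 units in persimmon peel livers, against 46.0, 61.1, 49.8 and 98.3 in control livers. The control mean leaned on array 4, and the groups overlapped. The log2 fold change was -0.38 (SE 0.23, 95% interval -0.87 to 0.12, limma adjusted p = 0.396), and over the fits without 1 array it ran from -0.51 to -0.15. Tested sets had a mean signal of at least 34.4 units, and the second Ppargc1a set, at 33.7 units, lay just outside that limit while the tested one lay inside it at 53.5. That second set read 22.0, 39.5, 26.3 and 20.01 units on the persimmon peel diet and 31.6, 44.0, 37.8 and 68.8 on the control diet, again highest on control array 4. In a fit with no limit on dim sets its log2 fold change was -0.75 (SE 0.30, limma adjusted p = 0.288). The last set, at a mean of 2.59 units, was below any usable signal.

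**Figure D2:**
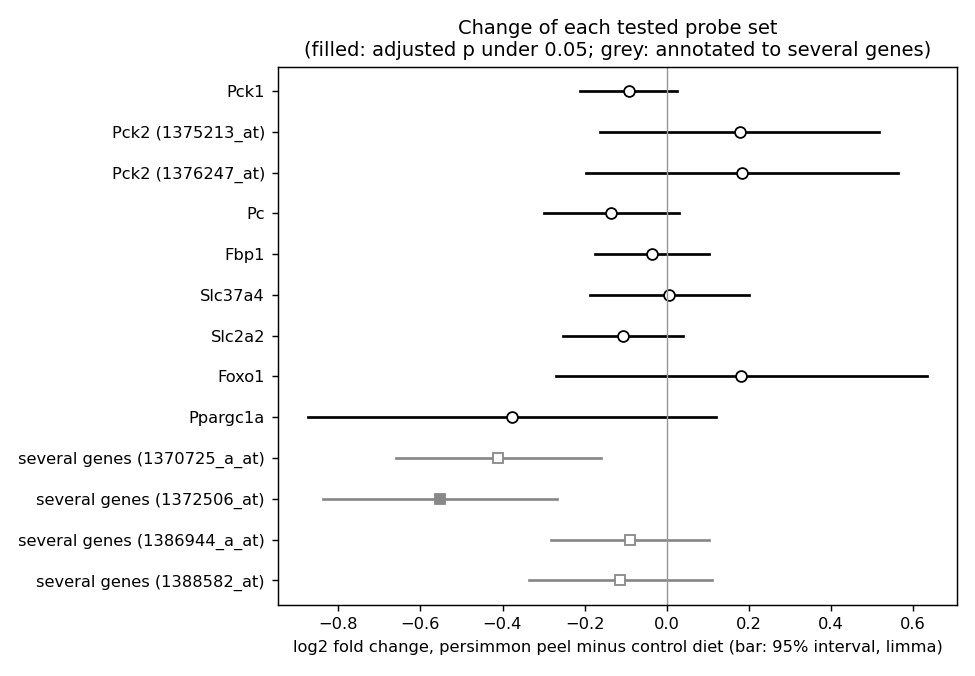
Log2 fold change, persimmon peel minus control diet, of the 9 tested probe sets (black circles) and of the 4 sets annotated to Psme3, Aoc3 and G6pc1 together (grey squares), with 95% intervals from limma. Every black interval crosses 0, and the filled square is the 1 set with an adjusted p under 0.05 (0.0288).

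Glucose 6-phosphatase, the last enzyme, could not be read by itself. The 4 sets annotated to Psme3 (a proteasome activator subunit), Aoc3 (an amine oxidase) and G6pc1 together were tested but counted under none of them. Their source accessions were looked up among RefSeq transcripts, which cannot place a set built on another kind of sequence, as the others were. The source sequence of 1 of the 4 is a G6pc1 transcript in the RefSeq table. That set (1386944_a_at) had 6180, 5618, 6195 and 6316 units on the persimmon peel diet and 7522, 6970, 6208 and 5345 on the control diet, where the control arrays spanned the whole persimmon peel range. Its log2 fold change was -0.09 (SE 0.09, limma adjusted p = 0.626).

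The other sets with that annotation did not change alike. Set 1370725_a_at had 3021, 3050, 2958 and 3229 units in persimmon peel livers, against 5160, 4497, 3762 and 3146 in control livers, so that the persimmon peel values were tightly grouped, with 3 of the 4 below the lowest control value. Its log2 fold change of -0.41 (SE 0.12) missed the threshold (limma adjusted p = 0.0592), and without control replicate 4 it was -0.53 (limma adjusted p = 0.0189). Set 1372506_at was lower without overlap, at 166, 220, 247 and 185 units on the persimmon peel diet against 341, 266, 292 and 290 on the control diet. Its log2 fold change of -0.55 (SE 0.13, limma adjusted p = 0.0288) was called in 9 of 18 other fits and not called without persimmon peel replicate 1 or 4 or control replicate 1, 3 or 4 (adjusted p 0.0629 to 0.0967). With the beta-actin ratio as a covariate it was -0.18. That ratio differs between the diets without overlap, so the fit separates ratio and diet poorly. The fourth set (1388582_at) had a log2 fold change of -0.11 (SE 0.10, limma adjusted p = 0.585). Which transcript the called set reads is not settled by the annotation.

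Most of the tested sets were highest on a single array of each diet. Persimmon peel array 3 held the highest value of its diet in 7 of the 9 tested sets, and control array 4 did so in 7 of 9. These arrays also had the highest median signal of their diets, 39.2 and 37.4 units. After quantile normalization, which removes such shifts, each held the highest value in fewer sets. Persimmon peel array 3 held it in 3 sets, the same as persimmon peel arrays 1 and 2, and control array 4 held it in 4. The mean of the 9 sets after centring was 0.17 on persimmon peel array 3 and 0.15 on control array 4 on the log2 scale as deposited, and 0.07 and 0.05 after quantile normalization.

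**Figure D3:**
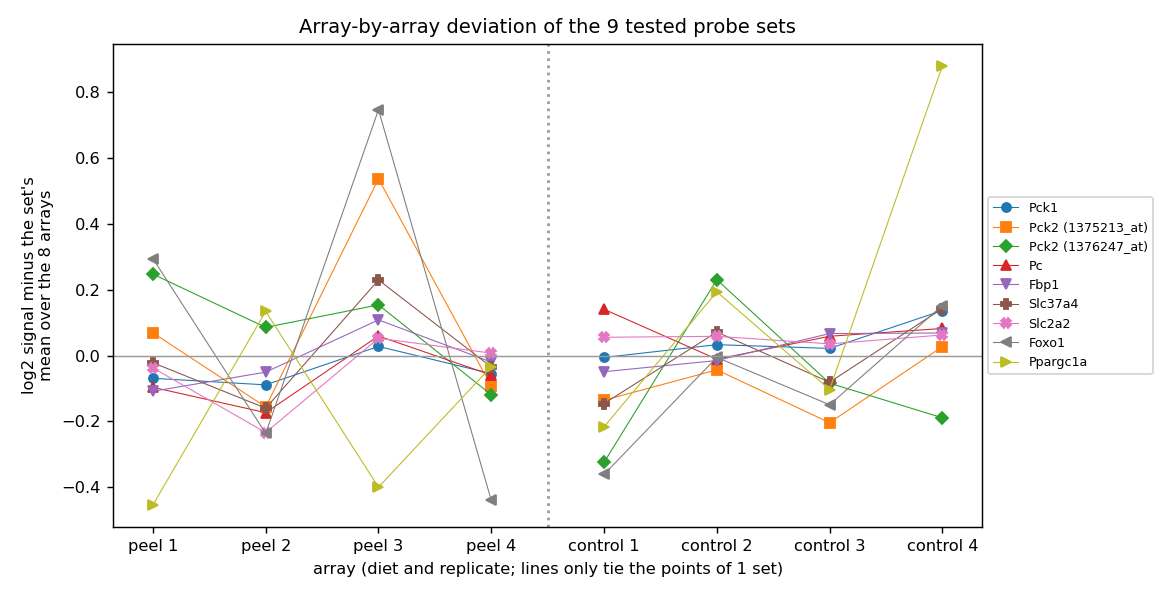
Log2 signal of each tested probe set minus its own mean over the 8 arrays, for persimmon peel arrays 1 to 4 (left) and control arrays 1 to 4 (right). Most sets lie high on persimmon peel array 3 and control array 4, and Foxo1, Ppargc1a and the brighter Pck2 set move far more than Pck1, Pc, Fbp1 and Slc2a2 do.

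Pck1, Fbp1, Pc and Slc2a2, all bright sets, had signals with a small pooled spread within the diets. For Slc2a2 the spread pools control livers at 0.827% of their mean with persimmon peel livers at 8.43% (SD, n = 4 each). The SD of the residuals on the log2 scale was 0.057 for Pck1, 0.077 for Fbp1, 0.082 for Pc and 0.089 for Slc2a2, which placed them among the lowest 6.51% of all tested sets. Bright sets spread less in general, with a median of 0.118 over 1555 sets of at least 1000 units and 0.228 over 9149 sets under 200 units. Slc37a4 (0.149) was above the bright-set median, and Foxo1 (0.408) and Ppargc1a (0.401) were wide for dim sets.

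For each gene, the tested probe set of another gene with the most similar array profile was found by the root mean square difference of centred log2 values over the 8 arrays, among 12146 sets. Pck1 was nearest to Cpb2 (0.02), a plasma carboxypeptidase gene. Fbp1 was nearest to the complement gene C9 (0.026), Pc to the ceruloplasmin gene Cp (0.032), Slc2a2 to Alkbh5 (0.022), an RNA demethylase gene, and Slc37a4 to the glutathione transferase gene Gsta4 (0.027). The brighter Pck2 set was nearest to Sh3bgrl3 (0.029). The fits were looser for Foxo1 with Gda (0.093), the guanine deaminase gene, and for Ppargc1a with Cyp8b1 (0.15), the sterol 12-hydroxylase gene of bile acid synthesis. The median distance to all candidates was 0.18 to 0.42, and a best match among so many is close by construction.

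Around the pathway, 6 genes had a probe set that was called, all of them lower, where 703 sets were lower and 66 higher over the array. Of the 6, 4 (Got1, Mpc1, Gpd1 and Gpt2) bring carbon into gluconeogenesis, as do 18 of the 52 genes tested. Of 61 other pathway genes, 55 had a probe set and 52 were tested. By the brightest set of each gene 2 were lower and 0 higher, or by any tested set 6 lower and 0 higher, where 1.93% and 5.89% of all 9174 named genes were lower in the same ways (0.469% and 0.545% higher). The median log2 fold change by the brightest set was -0.02 over the 52 genes and 0.01 over all named genes.

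Both genes called by their brightest set belong to substrate entry. None of its 18 genes was called higher, which is near the background, as 0.469% of all named genes were called higher. By the brightest set 12 of the 18 estimates were negative and 6 positive. Got1, the cytosolic aspartate aminotransferase, had 775, 884, 593 and 579 units in persimmon peel livers and 1321, 1132, 897 and 864 in control livers, and the ranges overlapped by 1 pair of arrays. This was -0.58 on the log2 scale (SE 0.15, limma adjusted p = 0.0446), called in 6 of 18 other fits. Mpc1, a subunit of the mitochondrial pyruvate carrier that supplies Pc, had 4362, 4253, 4036 and 4407 units on the persimmon peel diet, all below the 4863, 5617, 4857 and 5390 on the control diet. Its log2 fold change of -0.28 (SE 0.07, limma adjusted p = 0.0295) was called in 8 of 18 other fits. Neither gene was called after quantile normalization (adjusted p = 0.106 for Got1 and 0.0819 for Mpc1) or without persimmon peel arrays 1 and 3 (0.231 for Got1 and 0.183 for Mpc1).

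In the other genes with a lower call, the call came from a dimmer set and the brightest set was not called. Gpd1, the glycerol 3-phosphate dehydrogenase that admits glycerol, had a log2 fold change of -0.49 in the dimmer set (SE 0.12, limma adjusted p = 0.0293), called in 9 of 18 other fits, and measured 0.18 (SE 0.11, adjusted p = 0.401) in the brighter. Gpt2, the mitochondrial alanine aminotransferase, had -0.46 in the dimmer set (SE 0.11, adjusted p = 0.0238), called in 11 of 18 other fits, and measured -0.11 (SE 0.11, adjusted p = 0.631) in the brighter. Pgm1, which links glycogen to glucose 6-phosphate, had 703, 750, 766 and 763 units on the persimmon peel diet against 1052, 958, 1067 and 1056 on the control diet in its dimmer set. This was -0.47 on the log2 scale (SE 0.08, limma adjusted p = 0.00523), called in 16 of 18 other fits. It was not called without persimmon peel arrays 1 and 3 (limma adjusted p = 0.0579). Nor was it called with the beta-actin covariate, a fit that called 0 sets over the whole array. The brighter Pgm1 set measured 0.11 (SE 0.08, adjusted p = 0.504). Pdk4, the kinase that shuts pyruvate dehydrogenase and so spares pyruvate, had -0.77 in the dimmer set (SE 0.20, adjusted p = 0.0378), called in 7 of 18 other fits and not after quantile normalization (adjusted p = 0.0747). The brighter Pdk4 set had the same sign and measured -0.31 (SE 0.29, adjusted p = 0.594), and -0.74 (adjusted p = 0.0136) without control replicate 4. The beta-actin ratio given above also differed between the diets, and whether it has a part in these differences between sets was not tested.

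**Figure D4:**
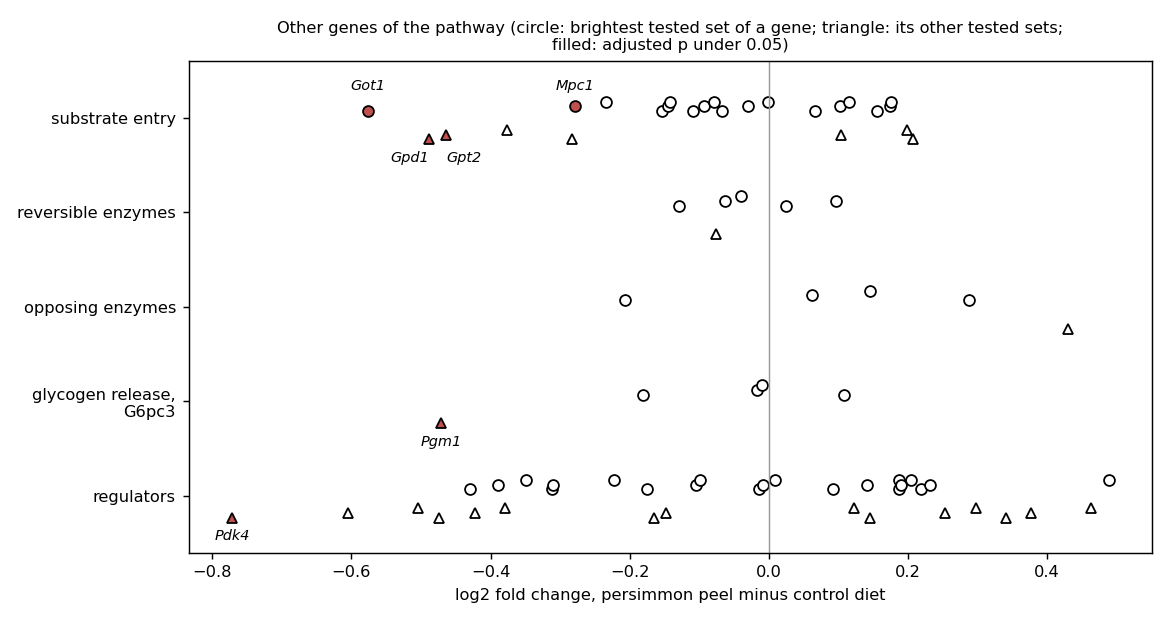
Log2 fold change, persimmon peel minus control diet, of the tested sets of 52 other pathway genes by role, with a circle for the brightest set of a gene and a triangle for its other sets. Filled symbols mark the 6 genes with a lower call at an adjusted p under 0.05, of which Got1 and Mpc1 are called by their brightest set, and no symbol right of 0 is filled.

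The remaining roles held no call by the brightest set. By their brightest sets the 5 tested reversible enzymes, shared with glycolysis, ran from -0.13 to 0.10 on the log2 scale. The 4 tested opposing enzymes ran from -0.21 to 0.29 by the same choice of set. The dimmer set of Pklr, the liver pyruvate kinase, measured 0.43 (SE 0.15, limma adjusted p = 0.108) and is named after its value was seen. Gckr, also of this list, measured 0.06 (SE 0.09, limma adjusted p = 0.751). G6pc3, the broadly expressed paralogue of G6pc1, had 61.8 ± 11.6 units on the persimmon peel diet and 61.5 ± 5.0 on the control diet (SD, n = 4 each), and the difference was -0.01 on the log2 scale (SE 0.17, limma adjusted p = 0.983).

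Of the 21 tested regulators, 11 measured below 0 and 10 above it by the brightest set, with 0 called. The smallest p among the positive values belonged to Crtc2, the CREB coactivator that responds to glucagon. It had 244, 212, 340 and 293 units on the persimmon peel diet and 196, 216, 182 and 172 on the control diet, with 1 pair of arrays out of order. This was 0.49 on the log2 scale (SE 0.14, limma adjusted p = 0.0635), and it was called under quantile normalization (0.51, adjusted p = 0.0351) and without persimmon peel replicate 2 (0.60, adjusted p = 0.0156). Hnf4a, the hepatocyte factor that binds both the Pck1 and G6pc1 promoters, measured 0.23 (SE 0.08, adjusted p = 0.127) in its brightest set and -0.38 (SE 0.14, adjusted p = 0.144) in another. Among the negative values, Klf15, a factor that promotes use of amino acids for gluconeogenesis, measured -0.35 (SE 0.11, adjusted p = 0.0861), and Foxo3, a relative of Foxo1, -0.43 (SE 0.15, adjusted p = 0.123).

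At 4 livers per diet the sizes that could be seen were limited. Changes of known size were added to values simulated with the means and residual SDs of the 15521 tested sets. The same test between the diets then recovered 19 of 50 sets at a 1.5-fold change, 39 of 50 at a 2-fold change and 48 of 50 at a 3-fold change, and smaller ones less often. These counts are not rates for the members. Few sets were changed, where 769 were called in the data, so the adjusted threshold was harder to pass in the simulation. The 95% intervals for Pck1, Pc, Fbp1, Slc37a4 and Slc2a2 lay between -0.30 and 0.20 on the log2 scale, which is 0.813 to 1.15 of the control signal. Whether signals as bright as those of Pck1 still follow the amount of transcript was not tested, so these intervals bound the signal only. For both Pck2 sets, Foxo1 and Ppargc1a the intervals reached from -0.87 to 0.63, which is 0.546 to 1.55 of the control signal.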

How the data were processed

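Liver RNA from 8 rats was measured on 1-colour Affymetrix arrays. The deposited values are intensity signals on a linear scale, and MAS5 is the tool that the submitters' processing notes give for them, with no version. Array scaling and detection calls: not given in the sources used here. No further scaling was applied. All 8 columns were used, grouped by their labels, and each array was taken as 1 animal. Symbols came from the platform annotation, updated by gene number through a RefSeq table of GRCr8. Values were taken to log2 with no pseudocount, the 57 control sets and the dimmest 50% of the rest were left out, and limma 3.58.1 in R 4.3.3 (lmFit, eBayes with intensity trend) compared the diets over 15521 sets with Benjamini-Hochberg adjustment. Every adjusted p given for a probe set is from such a limma fit. The fit was tested on simulated data.

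The rule named all members, each other pathway gene with a called set, in each direction the 2 uncalled genes of smallest p, Gckr and G6pc3, and 1 nearest gene per member. Members, lists and alternatives were chosen with earlier results of these data known. Alternatives were median centring, quantile normalization, no filter, the upper 30% by signal, a pseudocount of 16, no intensity trend, array weights, a block for the replicate number, leaving out each array, persimmon peel arrays 1 and 3 left out, the beta-actin ratio as a covariate, and other choices of probe set per gene. Deviations of same-numbered arrays of the 2 diets correlated with r of -0.0846 to 0.0539. So few arrays cannot settle whether the numbers pair the animals, and the main fit used no pairing.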

Additional observations from a re-analysis of the deposited data

Results flagged for a closer look

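In 6 of 68 groups of 4 arrays examined, 1 array stood far from the other 3. Chance gives about 1 such group in 20. In the Foxo1 set 1375688_at persimmon peel array 4 read 12.1 units, where the other persimmon peel arrays read 1.53 to 2.02, all too dim to test. In the brightest Hnf4a set persimmon peel array 3 read 3878 units, against 3218 to 3307 on the others of that diet. In the dimmer Gpt2 set persimmon peel array 4 read 272.5 units, against 330.9 to 341.2. In the Gckr set control array 2 read 1163 units, against 1055 to 1072 on the other control arrays. In the brighter Pdk4 set control array 4 read 216.5 units, against 650.3 to 801.1. In the dimmer Pgm1 set control array 2 read 958 units, against 1052 to 1067.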

How the results depend on the processing

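The count of member sets called stayed at 0 in both directions in 19 alternatives. Over the array, lower calls numbered 441 with no filter, 76 without persimmon peel arrays 1 and 3 and 0 with the beta-actin covariate, and 294 to 942 with 1 array left out. Higher calls numbered 271 after quantile normalization, 26 with no filter, 41 in the upper 30%, 33 without the intensity trend, 1 without persimmon peel arrays 1 and 3, 0 with the covariate, and 12 to 269 with 1 array left out. The covariate differs between the diets without overlap, so that fit separates ratio and diet poorly. Other pathway genes called lower numbered 6 by any set, 0 after quantile normalization, with no filter, without the trend, with the covariate or without persimmon peel arrays 1 and 3, and 0 to 3 with 1 array left out. Those called higher numbered 1 after quantile normalization and 0 to 1 with 1 array left out. With the replicate block 596 sets were lower and 60 higher, 2 pathway genes were lower, and the members kept 0. The block moved set 1370725_a_at past the threshold (-0.41, limma adjusted p = 0.0384). The beta-actin ratio difference was -0.344 to -0.259 with 1 array left out and -0.226 without persimmon peel arrays 1 and 3. Its exact permutation p was 0.0286 without any 1 persimmon peel array, 0.0571 without any 1 control array and 0.0667 without persimmon peel arrays 1 and 3. The last is the smallest p that so few arrays allow, so it could not fall under 0.05.

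Signs of uncalled values changed as follows. With the beta-actin covariate they were -0.25 for the brighter Pck2 set, -0.0028 for the dimmer, -0.66 for Foxo1, -0.26 for Slc37a4, 0.17 for Ppargc1a, 0.0490 for G6pc3, -0.17 for Gckr, -0.30 for the brighter Gpd1 set and 0.0496 for the brighter Gpt2 set. Without persimmon peel arrays 1 and 3 they were -0.0355 for the brighter Pck2 set, -0.247 for Foxo1, -0.0940 for Slc37a4 and -0.0559 for Gckr. After quantile normalization they were 0.0508 for Fbp1, 0.0123 for set 1386944_a_at and 0.0210 for G6pc3. Slc37a4 was -0.0145 with median centring and -0.0149 with array weights. With 1 array left out Slc37a4 ran from -0.0689 to 0.0607, Foxo1 from -0.0362 to 0.36 and G6pc3 from -0.11 to 0.11. The causes were not tested. The limits are 4 arrays per diet, signals near the filter for Pck2 and Ppargc1a, and 1 tested set for most members.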
